A study of Mus musculus with 6 samples.

Results

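The genes described here build the cornified envelope of the epidermis or encode S100A proteins. They were chosen by symbol: every mouse gene named Lce, Sprr or S100a with a number, and with them Lor, Ivl, Flg, Flg2, Hrnr, Rptn, Tchh, Tchhl1, Crnn, Crct1, Sbsn, Krtdap, Calml3, Tgm1 and Tgm3. The rule gave 66 of the 43274 genes in the deposited tables. There were 21 Lce genes, 17 Sprr genes, 13 S100A genes, 7 S100-fused genes, 3 genes for a calcium sensor and transglutaminases, and 5 genes for other envelope or secreted proteins.

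In terminal differentiation keratinocytes stop dividing, move upward and replace their plasma membrane with a cornified envelope. Involucrin, loricrin, small proline-rich (Sprr) and late cornified envelope (Lce) proteins are cross-linked into this shell by transglutaminases, while filaggrin-like S100-fused proteins pack the keratin filaments beneath it. Most of these genes lie side by side in the epidermal differentiation complex with the genes of the S100A proteins, small calcium-binding proteins that include S100a8 and S100a9, which form a heterodimer abundant in neutrophils and induced in stressed keratinocytes. Bulge stem cells (SCs) of the hair follicle are undifferentiated basal cells, in which envelope proteins are not a hallmark.

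Bulge SCs with high α6 integrin and surface CD34 were sorted by FACS from the epidermis of mice on a mixed C57Bl6-129/Sv background at postnatal day 21, and RNA-seq followed whole-transcriptome amplification. The 3 control libraries came from mice heterozygous for Ilk (ILK +/-, 1 floxed allele) and the 3 ILK-K5 libraries from mice lacking integrin-linked kinase in keratinocytes (ILK -/-, both alleles floxed). Both genotypes carried Cre under the keratin 5 promoter, which is active in basal keratinocytes of epidermis and follicle, and thus directs the deletion to keratinocytes and not to leukocytes or dermal cells. The labels do not say which libraries came from separate mice, and p-values measure the spread between these samples.

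The libraries held 8228019 to 11969072 reads on genes, and 1 read was worth 0.726 to 1.52 normalized counts. Mitochondrial transcripts took 11.5% to 27.6% of the reads, with control library 3 lowest. Ilk did not check the labels: its normalized counts were 10.6, 16.7 and 38.5 in control against 14.8, 30.9 and 29.2 in ILK-K5 libraries (each in the order 1 to 3, as throughout), and 89.7% of its exon bases are also exon of Rrp8 or Taf10 on the opposite strand. Of 9 markers of basal and bulge keratinocytes, all above the filter, Cd34 was the 1 gene called, and it was lower in ILK-K5, at 2009, 947 and 1960 normalized counts in control and 296, 560 and 433 in ILK-K5 libraries. All 9 tested macrophage markers of 10 listed were higher in ILK-K5, with summed levels of 86.7 to 124 in control and 9249 to 13004 normalized counts in ILK-K5 libraries. Of 4 tested fibroblast markers only Col3a1 was called, of 4 tested T cell markers only Cd4, and of 5 tested Langerhans and dendritic cell markers only Itgax. Each of these was higher in ILK-K5. Among the T cell markers not called, Cd3e (2.48) and Cd3g (2.31) had positive and Cd3d (-0.47) negative log2 fold changes. The part of all these cell types in the results below was not tested, also where marker values are given beside a gene. In bulk RNA of sorted cells, fewer cells of a type and less RNA per cell cannot be told apart.

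In the ILK-K5 libraries of sorted cells the small proline-rich genes Sprr1b, Sprr2a3 and Sprr2b rose, and with them S100a8 and S100a9, while Flg2, Lor, Lce1m and Calml3 fell. Of the 66 genes, 32 reached an average of 10 normalized counts across all 6 libraries and were tested. By limma with Benjamini-Hochberg adjustment over all 16368 tested genes, 5 were called higher and 4 lower, and 23 were not called at an adjusted p of at most 0.05. Over the whole table, 2.93% of the tested genes were called higher and 0.599% lower (3.53% in either direction). At an unadjusted p under 0.05 there were 17 of the 32, against 12.3% of all tested genes. The libraries of the genotypes did not overlap for 8 genes that were higher and 8 that were lower in ILK-K5, against 10.9% and 6.95% of all tested genes. Sprr2a1, Sprr2a2 and Sprr2a3 are among the 17 and among the 8 that were higher, and they are not independent of each other. The median log2 fold change of the 32 was -0.19, against 0.0054 over all tested genes. For 9 of the 32, among them Lce1m, S100a8, S100a9, Sprr1b and Sprr2b, the mean of 1 genotype was itself under 10 normalized counts, and such a gene could pass the filter only through the genotype in which it was high, so the counts of calls are a description.

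**Figure D1:**
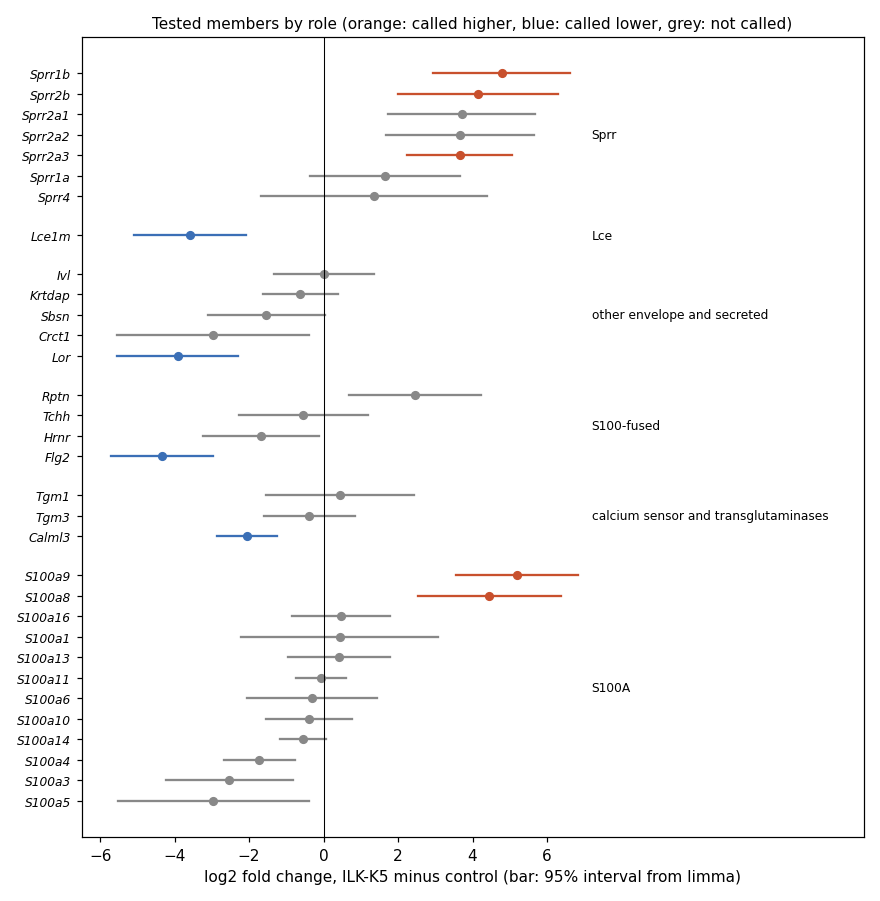
Log2 fold changes of the 32 tested genes by role, on the scale of log2(normalized count + 1), as ILK-K5 minus control. Points are limma estimates with 95% intervals; the called genes are Sprr1b (4.78), Sprr2b (4.15), Sprr2a3 (3.66), S100a9 (5.20) and S100a8 (4.46) to the right of 0, and Flg2 (-4.33), Lor (-3.91), Lce1m (-3.60) and Calml3 (-2.04) to the left.

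Of the called genes, 8 had a promoter entry in RefSeq on GRCm38.p6, and Calml3 had none. The 250 bases upstream of the annotated start are printed for 5 of them, 2 that rose and 3 that fell, because they are envelope genes and hold the letters of a TATA box (TATAAA) or of an AP-1 site (TGANTCA), a motif bound by Fos and Jun proteins in many keratinocyte genes. Capitals mark these matches, which were searched on both strands and do not overlap each other. The windows are chr3:92438780-92439029 on the minus strand for Sprr1b, chr3:92316455-92316704 on the plus strand for Sprr2b, chr3:92083143-92083392 on the minus strand for Lor, chr3:93197023-93197272 on the plus strand for Flg2 and chr3:93019062-93019311 on the minus strand for Lce1m.
Sprr1b: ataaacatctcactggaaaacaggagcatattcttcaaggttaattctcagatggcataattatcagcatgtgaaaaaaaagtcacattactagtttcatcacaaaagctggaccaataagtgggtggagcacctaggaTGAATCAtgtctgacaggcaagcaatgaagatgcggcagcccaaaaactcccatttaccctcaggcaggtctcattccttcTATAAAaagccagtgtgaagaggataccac
Sprr2b: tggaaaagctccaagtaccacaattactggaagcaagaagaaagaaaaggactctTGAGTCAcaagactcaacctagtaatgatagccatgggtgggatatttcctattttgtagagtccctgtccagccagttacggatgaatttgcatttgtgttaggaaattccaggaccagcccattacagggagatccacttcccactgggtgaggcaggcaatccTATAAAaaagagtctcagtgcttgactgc
Lor: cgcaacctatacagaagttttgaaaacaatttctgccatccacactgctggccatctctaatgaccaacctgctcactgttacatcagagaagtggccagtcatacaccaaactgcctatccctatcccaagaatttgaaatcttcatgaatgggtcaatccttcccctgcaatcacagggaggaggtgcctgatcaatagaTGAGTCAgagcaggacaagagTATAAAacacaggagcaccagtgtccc
Flg2: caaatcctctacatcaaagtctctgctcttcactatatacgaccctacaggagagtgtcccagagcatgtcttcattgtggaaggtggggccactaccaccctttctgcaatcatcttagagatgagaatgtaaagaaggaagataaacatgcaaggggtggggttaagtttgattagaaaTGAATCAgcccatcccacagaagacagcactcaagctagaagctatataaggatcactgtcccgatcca
Lce1m: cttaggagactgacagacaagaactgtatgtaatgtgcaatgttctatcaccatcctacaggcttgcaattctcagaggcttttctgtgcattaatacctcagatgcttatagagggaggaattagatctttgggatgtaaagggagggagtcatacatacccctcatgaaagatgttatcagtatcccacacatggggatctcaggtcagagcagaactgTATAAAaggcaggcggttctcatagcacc

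The first letter of TATAAA stood 27 to 30 bases before the start in Sprr1b, Sprr2b, Lor, Lce1m and S100a8, and TGANTCA stood 111 bases before it in Sprr1b, 195 in Sprr2b, 69 in Flg2 and 48 in Lor. So both motifs occurred among the genes that rose and among those that fell. Of the called genes with an entry, TATAAA was found for 3 of the 5 that rose and 2 of the 3 that fell. For TGANTCA these were 2 of the 5 and 2 of the 3. Sprr2a3 and S100a9 held neither motif. TATAAA was found for 25 of the 57 listed genes with an entry (43.9%) and in 12.4% of all 32851 promoter entries of this length, and TGANTCA for 20 (35.1%) and in 6.75%. The GC box GGGCGG, common in promoters without a TATA box, was found for 6 of the 57 (10.5%) and in 32.7% of all entries. For each motif a listed gene counted if any of its entries held it, whereas the share of all entries was per entry. These shares are thus in unlike units. The matches are a description of letters, and no binding was measured here.

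Small proline-rich proteins are short envelope precursors that act as cross-bridges, and several are induced in wounded or inflamed skin. Of 17 Sprr genes 7 were tested, 3 were called higher and none lower, and 5 had libraries that did not overlap, all higher in ILK-K5. Over all tested genes 2.93% were called higher, and 10.9% did not overlap and were higher in ILK-K5. Sprr2a1, Sprr2a2 and Sprr2a3 are among the 5 and are not independent measurements, as given below. Summed over the 17 genes, Sprr transcripts had 109, 593 and 1367 normalized counts in control and 1223, 5960 and 4361 in ILK-K5 libraries. The highest control library thus lay above the lowest ILK-K5 library, and library 1 was lowest in each genotype. As the Sprr2a genes share much of their sequence, the sums may count some reads more than once.

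Sprr1b (ENSMUSG00000048455, chr3:92436809-92438789, minus strand) had 0, 0 and 2.18 normalized counts in the control libraries and 37.6, 47.8 and 34.1 in the ILK-K5 libraries. These were 0, 0 and 3 reads against 33, 62 and 35, so the control libraries were at the floor of 3 reads and all ILK-K5 libraries well above it. Against that floor, set per library, Sprr1b in ILK-K5 was at least 12.4-fold higher, and limma gave a log2 fold change of 4.78 (SE 0.82, adjusted p = 0.0126). Leaving out ILK-K5 library 1, 2 or 3 gave adjusted p = 0.0641, 0.113 and 0.0876, and a pseudocount of 0.1 gave 0.0586.

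Sprr2b (ENSMUSG00000050092, chr3:92316620-92318085, plus strand) had 0, 0 and 2.18 normalized counts in control and 10.2, 40.9 and 37.0 in ILK-K5 libraries, or 0, 0 and 3 reads against 9, 53 and 38. In ILK-K5 it was at least 9.15-fold higher, with a log2 fold change of 4.15 (SE 0.95, adjusted p = 0.0490). This call rested on few reads and lay at the threshold. It was lost without any single library other than control library 3, with adjusted p = 0.0563 and 0.133 without control libraries 1 and 2 and 0.0669, 0.312 and 0.299 without ILK-K5 libraries 1 to 3, and also in edgeR (0.0572) and with a pseudocount of 0.1 (0.119).

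The Sprr2a genes were the most abundant Sprr2 transcripts. Sprr2a3 (ENSMUSG00000074445, chr3:92285417-92291405, plus strand) had 16.4, 54.7 and 48.6 normalized counts in control and 187, 755 and 680 in ILK-K5 libraries, means of 39.9 ± 20.6 and 541 ± 309 (SD, n = 3). Every ILK-K5 library was above every control library, with a log2 fold change of 3.66 (SE 0.63, adjusted p = 0.0128). The call was lost without control library 2 (adjusted p = 0.0505), ILK-K5 library 2 (0.0672) or ILK-K5 library 3 (0.0595).

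Sprr2a1 had 21.2, 73.0 and 183 normalized counts in control and 253, 1841 and 1434 in ILK-K5 libraries. These libraries did not overlap either, but with a log2 fold change of 3.71 (SE 0.87) the adjusted p was 0.0549. It passed the threshold without control library 3 (0.0256) or ILK-K5 library 1 (0.0182), with a pseudocount of 5 (0.0455), without a filter (0.0188) and in DESeq2 (5.63e-05). Sprr2a2 followed it read by read, with 22, 50 and 256 reads in control libraries against 22, 48 and 252 for Sprr2a1, and 216, 2397 and 1473 in ILK-K5 libraries against 222, 2387 and 1472 (log2 fold change 3.67, adjusted p = 0.0597). Of the 100-base windows of their exons, 92.5% for Sprr2a1 and 92.8% for Sprr2a2 also occur in another gene, chiefly in each other, and 36.2% for Sprr2a3. How reads of such copies were assigned is not given in the sources used here, so Sprr2a1 and Sprr2a2 are 1 measurement and Sprr2a3 is not independent of them. Summed, the 3 genes had 58.9, 204 and 417 normalized counts in control and 685, 4445 and 3549 in ILK-K5 libraries, and these sums may count some reads more than once.

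Sprr1a and Sprr4 did not pass the test. Sprr1a had 42.5, 306 and 810 normalized counts in control and 466, 1172 and 617 in ILK-K5 libraries (log2 fold change 1.66, 95% interval -0.36 to 3.67, adjusted p = 0.557). Sprr4 had 1.93, 65.4 and 129 against 19.4, 196 and 103 (1.35, interval -1.68 to 4.38, adjusted p = 0.822). Both genes varied between control libraries by more than the difference between the means. Per length, Sprr1a was the most abundant Sprr gene in control libraries, at a mean of 49.1 ± 49.7 FPKM (SD, n = 3), and in ILK-K5 libraries (95.6 ± 47.3). The other 10 Sprr genes, among them Sprr3 and the Sprr2 genes other than 2a and 2b, stayed below the filter, at means of at most 5.65 normalized counts.

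**Figure D2:**
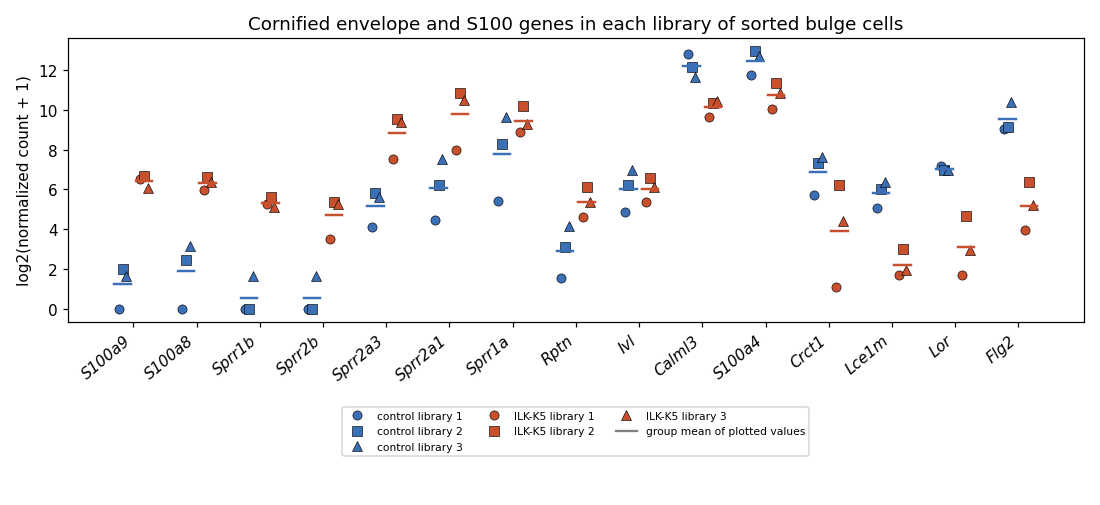
Log2(normalized count + 1) of 15 genes in each library, with control in blue and ILK-K5 in orange, symbols for libraries 1 to 3 and a bar at each group mean. The ILK-K5 symbols lie above all control symbols from S100a9 to Sprr2a1 and for Rptn, overlap with them for Sprr1a, Ivl and Crct1, and lie below them for Calml3, S100a4, Lce1m, Lor and Flg2.

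Loricrin, encoded by Lor, is the major protein of the mature cornified envelope. Lor (ENSMUSG00000043165, chr3:92080271-92083142, minus strand) had 142, 123 and 126 normalized counts in control and 2.28, 24.7 and 6.82 in ILK-K5 libraries, means of 130.2 ± 10.2 and 11.3 ± 11.8 (SD, n = 3). The control libraries lay close together and the highest ILK-K5 library stayed far under the lowest of them. The log2 fold change was -3.91 (SE 0.72, adjusted p = 0.0182), and the call was lost without control library 2 (adjusted p = 0.10) or ILK-K5 library 3 (0.0615).

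Of 21 late cornified envelope genes, 20 were below the filter. Lce1m was the 1 that passed it, and 2 others (Lce1k and Lce3a) had no reads. Lce1m (ENSMUSG00000027912, chr3:93017810-93019060, minus strand) had 32.8, 63.9 and 81.3 normalized counts in control and 2.28, 6.94 and 2.92 in ILK-K5 libraries, or 34, 42 and 112 reads against 2, 9 and 3. It fell in ILK-K5 with a log2 fold change of -3.60 (SE 0.67, adjusted p = 0.0187). The call was lost without control library 2 (0.0981), control library 3 (0.0660), ILK-K5 library 1 (0.0544) or ILK-K5 library 3 (0.0774). The other 20 Lce genes together had 10.6, 39.5 and 77.6 normalized counts in control and 6.83, 99.5 and 59.4 in ILK-K5 libraries, so their sums overlapped and did not follow Lce1m. Among them Lce6a was the most abundant at a mean of 8.44.

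S100-fused proteins carry an S100 domain at the amino terminus followed by long repeats. Flg2 (ENSMUSG00000049133, chr3:93197278-93221391, plus strand), which encodes the filaggrin-like filaggrin 2, had 524, 563 and 1353 normalized counts in control and 14.8, 82.5 and 36.0 in ILK-K5 libraries, means of 813 ± 468 and 44.5 ± 34.6 (SD, n = 3). All ILK-K5 libraries lay far below all control libraries. Its log2 fold change of -4.33 (SE 0.61, adjusted p = 0.00428) was the largest fall among the 32 tested genes, and it remained called with each of the 6 libraries left out in turn.

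Hornerin, encoded by Hrnr, is a close relative. Hrnr had 275, 400 and 1247 normalized counts in control and 69.4, 398 and 146 in ILK-K5 libraries (log2 fold change -1.69, adjusted p = 0.345), and its libraries overlapped. Repetin, encoded by Rptn, stood the other way, with 1.93, 7.60 and 16.7 against 23.9, 68.6 and 40.9 normalized counts (log2 fold change 2.45, adjusted p = 0.179). Its libraries did not overlap, but the control mean of 8.74 was under the filter. Tchh, the trichohyalin gene of the inner root sheath, was at a log2 fold change of -0.54 (adjusted p = 0.891), and Flg, Crnn and Tchhl1 were below the filter. Flg itself, the filaggrin gene, had 4.82, 13.7 and 2.90 against 3.42, 10.03 and 6.82 normalized counts. In sum, the 7 genes had 824, 997 and 2639 normalized counts in control and 118, 572 and 241 in ILK-K5 libraries, a difference carried mostly by Flg2 and Hrnr.

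Other envelope and secreted proteins did not pass the test apart from Lor. Involucrin, encoded by Ivl, is an early envelope scaffold. Ivl had 27.98, 73.0 and 125 normalized counts in control and 39.8, 95.6 and 69.2 in ILK-K5 libraries. With a log2 fold change of 0.01 and a 95% interval of -1.33 to 1.35, changes of either sign inside this interval remain possible. Crct1, a small cysteine-rich gene beside Lce1m, had 51.1, 161 and 195 against 1.14, 74.8 and 20.5 (log2 fold change -2.97, adjusted p = 0.297). Sbsn, which encodes the suprabasal protein suprabasin, had 699.5, 1334 and 3782 against 200.4, 943 and 761 (-1.54, adjusted p = 0.420), and Krtdap, a keratinocyte differentiation-associated protein, 1237, 3915 and 4219 against 1649, 2159 and 1581 (-0.62, adjusted p = 0.730). The libraries of these 3 genes overlapped between genotypes.

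**Figure D3:**
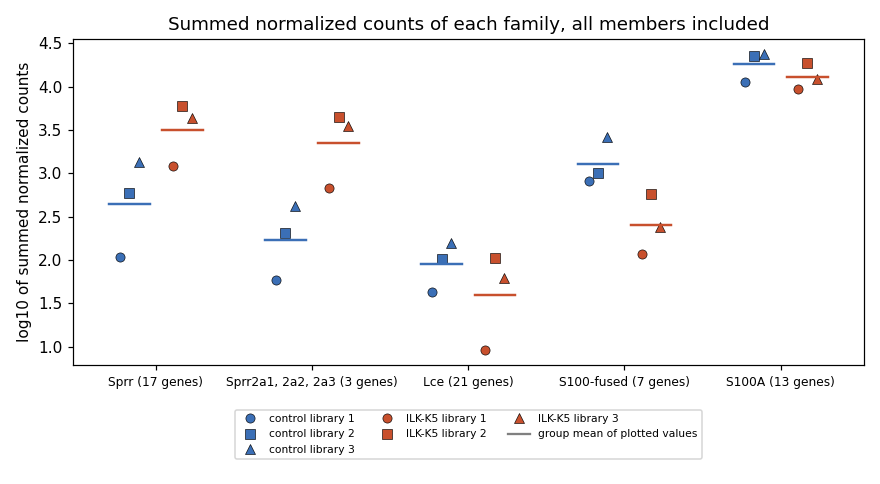
Log10 of the summed normalized counts of each family in each library, with genes below the filter included; control in blue, ILK-K5 in orange, bars at the group means of the plotted values. The 3 Sprr2a genes (58.9 to 417 in control, 685 to 4445 in ILK-K5) and the S100-fused genes (824 to 2639 in control, 118 to 572 in ILK-K5) do not overlap, while the sums of all Sprr, Lce and S100A genes do. Sums that hold the Sprr2a genes may count some reads more than once.

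Calml3 encodes a calmodulin-like calcium sensor of epithelial cells, and per length it was abundant in control libraries, at a mean of 357 ± 143 FPKM (SD, n = 3). Calml3 (ENSMUSG00000063130, chr13:3802896-3804316, minus strand) had 7137, 4533 and 3217 normalized counts in control and 809, 1300 and 1405 in ILK-K5 libraries, means of 4962 ± 1995 and 1171 ± 318 (SD, n = 3). All ILK-K5 libraries were below all control libraries, and the log2 fold change was -2.04 (SE 0.36, adjusted p = 0.0140). The call was lost without control library 2 (0.0716) or ILK-K5 library 1 (0.0571). Library 1 was the highest control library and the lowest ILK-K5 library for Calml3.

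The transglutaminases Tgm1 and Tgm3, which cross-link the envelope, did not pass the test. Tgm3, abundant in upper epidermis and follicle, had 27.0, 98.8 and 79.8 against 52.4, 39.3 and 46.8 normalized counts (log2 fold change -0.38, 95% interval -1.59 to 0.84). Tgm1, anchored to the keratinocyte membrane, had means of 25.0 ± 27.3 and 22.4 ± 7.57 (SD, n = 3) and a log2 fold change of 0.44 (interval -1.54 to 2.43) that turned to -0.19 in edgeR and to -0.44 without control library 1.

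S100a8 and S100a9 rose together from near 0. S100a9 (ENSMUSG00000056071, chr3:90692632-90695721, minus strand) had 0, 3.04 and 2.18 normalized counts in control and 92.2, 103 and 65.3 in ILK-K5 libraries, or 0, 2 and 3 reads against 81, 133 and 67. The control libraries were at the floor, and S100a9 in ILK-K5 was at least 27.0-fold higher (log2 fold change 5.20, SE 0.73, adjusted p = 0.00409). It remained called with each of the 6 libraries left out in turn. S100a8 (ENSMUSG00000056054, chr3:90668978-90670035, plus strand) had 0, 4.56 and 7.98 normalized counts in control and 62.6, 97.9 and 82.8 in ILK-K5 libraries (log2 fold change 4.46, SE 0.85, adjusted p = 0.0208). The libraries did not overlap, but the call was lost without control library 2 (0.0696), without ILK-K5 libraries 1, 2 or 3 (0.0660, 0.120 and 0.102) and with a pseudocount of 0.1 (0.108).

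Both transcripts are also found in neutrophils and other myeloid cells. Of 10 neutrophil markers 2 were tested and none was called, and Ly6g, Ngp, Retnlg and Elane had no reads in any ILK-K5 library. Other markers of the list were higher in every ILK-K5 library than in any control library: Csf3r had 9.65, 3.04 and 2.18 against 13.7, 41.6 and 57.5 normalized counts (log2 fold change 2.69, adjusted p = 0.139), Cxcr2 27.0, 18.2 and 18.9 against 49.0, 51.7 and 54.5 (1.26, adjusted p = 0.252), and Mmp8, below the filter, 0, 0 and 0.726 against 9.11, 3.86 and 2.92. Summed neutrophil markers, in ILK-K5 mostly Cxcr2 and Csf3r, ranged from 26.1 to 73.3 normalized counts in control and from 74.0 to 117 in ILK-K5 libraries. The macrophage markers given above rose far more, and the part of macrophages in S100a8 and S100a9 was not tested. Tlr4, a receptor for this heterodimer, had means of 13.2 ± 10.1 and 70.1 ± 16.2 normalized counts (SD, n = 3; log2 fold change 2.80, adjusted p = 0.129), and Ager, the other receptor listed, stayed below the filter.

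By mean FPKM the 6 most abundant S100A genes had the same order in both genotypes, except that S100a4 stood before S100a6 in control and behind it in ILK-K5. Per length, S100a11 was highest in control libraries, at a mean of 1140 ± 289 FPKM (SD, n = 3), followed by S100a4 (1058 ± 417), S100a6 (610.2 ± 476), S100a14 (177 ± 10.9), S100a10 (66.2 ± 35.8) and S100a16 (23.7 ± 13.6). The libraries of the first 3 overlapped. In ILK-K5 the means were 1075 ± 183 FPKM for S100a11, 494 ± 370 for S100a6 and 320.0 ± 132 for S100a4. S100a8 (1.09 ± 1.05 FPKM) and S100a9 (0.342 ± 0.308 FPKM) were near the end of this order in control libraries, and at 21.2 ± 4.64 and 17.03 ± 3.78 FPKM in ILK-K5 libraries they lay near S100a16 (33.0 ± 20.0 FPKM).

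S100a4, a motility-associated S100 gene also expressed by leukocytes and fibroblasts, had 3395, 8009 and 6768 normalized counts in control and 1061, 2574 and 1860 in ILK-K5 libraries. Its libraries did not overlap, yet with a log2 fold change of -1.73 (SE 0.42, 95% interval -2.68 to -0.78) the adjusted p was 0.0632. It passed the threshold without control library 1 (0.0218), without a filter (0.0473) and in DESeq2 (0.00239). Of its 100-base windows, 41.9% also occur in the unnamed gene ENSMUSG00000105518. The summed fibroblast markers, mostly Col1a1, Col1a2 and Col3a1, had 703 to 779 normalized counts in control and 1532 to 2493 in ILK-K5 libraries. Of this list only Col3a1 was called. Col1a1, Col1a2 and Col3a1 were higher in every ILK-K5 library than in any control library, as were 10.9% of all tested genes. Lum, below the filter, had no reads in control and 19.4, 10.8 and 5.84 normalized counts in ILK-K5 libraries. Dcn (log2 fold change 0.61, adjusted p = 0.852) and Pdgfra, also below the filter, overlapped. The macrophage markers given above were also higher in ILK-K5. The part of fibroblasts and macrophages in S100a4 was not tested.

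Of the other S100A genes, S100a3, S100a5 and S100a14 had lower values in every ILK-K5 library without passing the test. S100a3, a gene of the hair shaft cuticle, had 23.2, 16.7 and 18.1 normalized counts in control and 3.42, 3.86 and 0.974 in ILK-K5 libraries (log2 fold change -2.53, adjusted p = 0.139). S100a5 had 51.1, 6.08 and 4.35 against 1.14, 0 and 0.974 (-2.96, adjusted p = 0.289), and its control mean rested on control library 1. S100a14 had 1861, 2018 and 1790 against 1575, 1420 and 958 (-0.55, adjusted p = 0.490).

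S100a11, an annexin-binding protein of the envelope, had 4266, 7150 and 5625 normalized counts in control and 5138, 6355 and 4573 in ILK-K5 libraries. Its log2 fold change was -0.07 with a 95% interval of -0.74 to 0.61, and 34.0% of its 100-base windows also occur in Gm12854. S100a6, highest in control library 3 and ILK-K5 library 2, had 1212, 3786 and 7837 against 920, 6108 and 3362 (-0.31, interval -2.06 to 1.44). S100a10 (-0.39), S100a13 (0.41), S100a1 (0.43) and S100a16 (0.46) had adjusted p-values of 0.874 to 0.948, and S100a2 was below the filter.

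**Figure D4:**
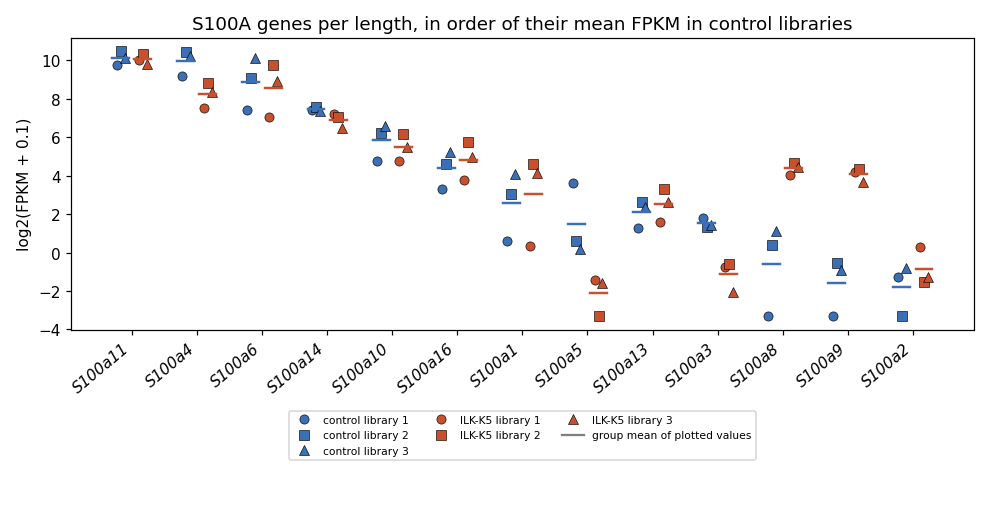
Log2(FPKM + 0.1) of the 13 S100A genes in each library, ordered by their mean FPKM in control libraries; control in blue, ILK-K5 in orange, bars at the group means of the plotted values. S100a8 and S100a9 stand above all control values in the 3 ILK-K5 libraries, S100a4, S100a14, S100a3 and S100a5 stand below them, and S100a11 overlaps.

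On chromosome 3, 61 of the 66 genes lie between 90511034 and 93564643 (GRCm38), a span of 3054 kb, and 5 lie elsewhere. Genes that rose and genes that fell lay side by side in this cluster. Of 11 S100A genes at its proximal end (90511034 to 90695721) 10 were tested, and the 2 that were called, S100a8 and S100a9, are the last of them. The stretch from Lor to Sprr4 (92080271 to 92500493) held 18 genes with 8 tested, of which 3 Sprr genes were called higher and Lor lower. The Lce stretch (92620081 to 93019060) held 21 genes with Lce1m tested and lower, and the stretch from Flg2 to Tchhl1 (93197278 to 93471980) 6 genes with 4 tested and Flg2 lower. Of 47 further genes of the annotation inside the cluster 16 were tested, with a median log2 fold change of -0.08, and 1 was called in each direction. 2310046K23Rik had means of 14.9 and 134 normalized counts (log2 fold change 3.25, adjusted p = 0.0329). Gm5849 had 64.6, 36.5 and 12.3 in control libraries and no reads in ILK-K5 libraries (adjusted p = 0.0182).

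**Figure D5:**
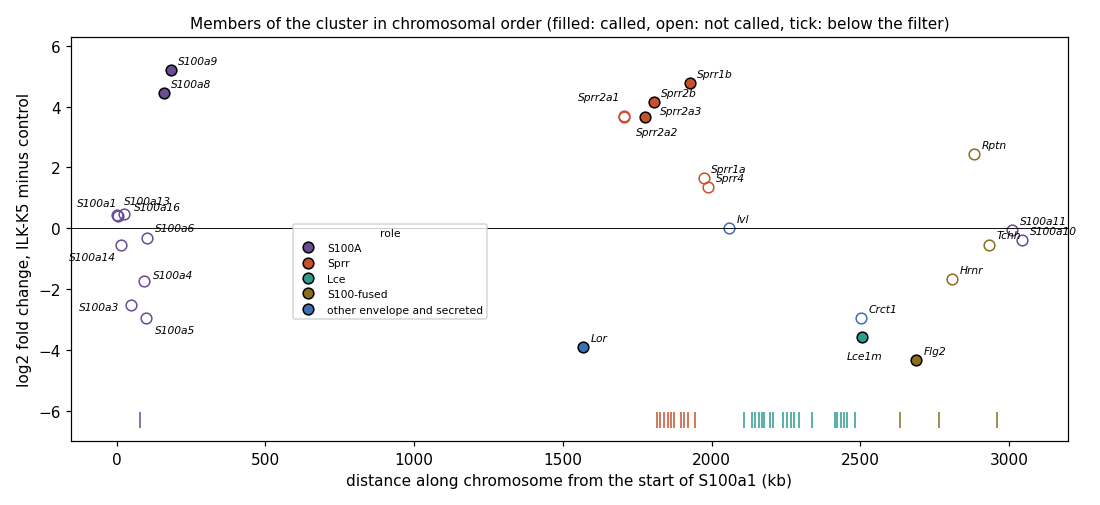
Log2 fold change (ILK-K5 minus control) of the genes of the cluster against the distance in kb along chromosome 3 from the start of S100a1, coloured by role. Filled points were called, open points were not, and ticks at the bottom mark genes below the filter; Lor (-3.91), Lce1m (-3.60) and Flg2 (-4.33) lie on either side of the Sprr genes, of which Sprr2a3, Sprr2b and Sprr1b are filled.

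Library 1 was the lowest library of both genotypes for most of these genes. In the control it was lowest for 26 of the 32, against 37.6% of all tested genes, and in ILK-K5 for 24 of the 32, against 42.6%. Both held for 21 of the 32, against 25.4%. The headers of the table give the same digits to the same-numbered library of each genotype. The digits of libraries 2 and 3 end alike and those of library 1 do not, and what they stand for is not given in the sources used here, so setting library 1 apart is a reading of these names. In libraries 2 and 3 alone, S100a8, S100a9, Sprr1b, Sprr2a1, Sprr2a2, Sprr2a3 and Sprr2b were called higher and Flg2, Lce1m and S100a4 lower, while Lor (log2 fold change -3.14, adjusted p = 0.0597) and Calml3 (-1.50, adjusted p = 0.0505) were not called.

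Further genes of epidermal differentiation were followed in 8 lists of 73 genes, of which 65 were tested. Of these, 5 were called higher and 4 lower (7.69% and 6.15% of those tested, against 2.93% and 0.599% of all tested genes), with a median log2 fold change of -0.27. The lists were chosen with earlier results of these data known, so these shares are a description. The calls fell among wound keratins, transglutaminases and transcription factors for those that rose, and among transglutaminases, barrier lipid genes, proteases and corneodesmosome proteins for those that fell.

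Of the 4 keratins of wounded skin, Krt6a and Krt6b were called higher in ILK-K5. Krt6a had 1372, 1282 and 2518 normalized counts in control and 5412, 4527 and 4052 in ILK-K5 libraries (log2 fold change 1.49, adjusted p = 0.0356), and Krt6b had means of 283 ± 65.3 and 734 ± 27.9 (SD, n = 3; 1.40, adjusted p = 0.0238). Krt6a is also a keratin of the follicle's companion layer. Krt6a was lost without any single library other than control library 3 (adjusted p = 0.0876 and 0.145 without control libraries 1 and 2, and 0.133, 0.135 and 0.106 without ILK-K5 libraries 1 to 3), and Krt6b was lost without control library 2 (0.0726) or ILK-K5 library 1, 2 or 3 (0.0738, 0.123 and 0.132). Krt16 (2.78, adjusted p = 0.0685) and Krt17 (1.91, adjusted p = 0.0930) did not pass, though both were higher in every ILK-K5 library than in any control library. Of all tested genes, 10.9% were higher without overlap.

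None of the 5 tested suprabasal keratins was called, and their median log2 fold change was -1.79. Krt1 had means of 2279 ± 2491 and 2133 ± 670 normalized counts, Krt10 of 2039 ± 1553 and 731 ± 12.7 (log2 fold change -1.18, adjusted p = 0.354) and Krt77 of 4341 ± 4614 and 458 ± 286 (SD, n = 3; -2.96, adjusted p = 0.0983). The spread between control libraries was as large as their mean for Krt1 and Krt77. Krt10, Krt77, Krt78 and Krt80 were lower in every ILK-K5 library than in any control library, while Krt1 overlapped. Of all tested genes, 6.95% were lower without overlap.

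The other transglutaminases changed in opposite directions. Tgm5, a keratinocyte transglutaminase, had 16029, 13716 and 10648 normalized counts in control and 1838, 1118 and 2708 in ILK-K5 libraries (log2 fold change -2.91, SE 0.36, adjusted p = 0.00227). Tgm2, the tissue transglutaminase that macrophages also express, had 9.65, 3.04 and 11.6 against 186, 192 and 127 (4.35, SE 0.56, adjusted p = 0.00261). Both remained called with each of the 6 libraries left out in turn. No tested peptidylarginine deiminase was called.

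Cebpb, a transcription factor expressed in keratinocytes and in macrophages, was higher in ILK-K5, with means of 14.2 ± 4.05 and 89.7 ± 21.4 normalized counts (SD, n = 3; log2 fold change 2.58, adjusted p = 0.0178). It was lost without control library 2 (0.0651) or ILK-K5 library 1, 2 or 3 (0.0851, 0.142 and 0.0737). Trp63 (-0.19), Klf4 (-0.42) and Grhl3 (0.32), regulators of the epidermal programme, did not pass.

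In the remaining lists 3 genes were lower. Dmkn encodes the secreted suprabasal protein dermokine (log2 fold change -1.25, adjusted p = 0.0453), Cers3 a ceramide synthase of barrier lipids (-1.37, adjusted p = 0.0473) and Spink5 the protease inhibitor LEKTI (-2.06, adjusted p = 0.0428). All 3 lay at the threshold. Dmkn and Cers3 were each lost whichever of the 6 libraries was left out, with adjusted p of 0.0505 to 0.177 and 0.0737 to 0.231. Spink5 was lost without control library 2 (0.193), control library 3 (0.0940), ILK-K5 library 1 (0.140) or ILK-K5 library 3 (0.139). In edgeR none of the 3 was called (adjusted p = 0.0594, 0.0572 and 0.0539). None of the 6 tested S100 genes outside the cluster, partners and receptors was called, and Anxa2, the partner of S100a10, was at a log2 fold change of 0.15 (adjusted p = 0.951). None of the 5 tested inner root sheath markers was called, with summed levels of 213 to 449 normalized counts in control and 213 to 413 in ILK-K5 libraries. Most of this sum was Krt25, except in ILK-K5 library 1, where Krt25 had 63.8 and Krt73 83.1 normalized counts. Krt71 (0, 0 and 9.43 against 18.2, 16.97 and 25.3 normalized counts, log2 fold change 3.26, adjusted p = 0.191) and Krt73 (0, 12.2 and 4.35 against 83.1, 27.8 and 27.3, 3.31, adjusted p = 0.144) were higher in every ILK-K5 library than in any control library.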

How the data were processed

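RNA-seq libraries of sorted bulge SCs (3 control, 3 ILK-K5) were analysed. According to the study's methods, RNA was amplified with the Ovation V2 system and made into Nextera XT libraries, adapters and ribosomal reads were removed, and read pairs were aligned to GRCm38. The submitters' processing notes name TopHat2 2.0.14, Bowtie2 2.2.4 and DESeq2 1.6.3. The counting program is not given in the sources used here. The authors deposited normalized counts, a signal in which every value (100%, tolerance 1e-06) was a read number over a per-library size factor, which gave back the reads. The deposited FPKM values were used to compare levels between genes. Tables with the authors' own fold changes and p-values were not used.

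Symbols and coordinates came from GENCODE M21 (42107 of 43274 genes, 97.3%), and promoters from RefSeq. Genotypes were compared with limma 3.58.1 in R 4.3.3 on log2(normalized count + 1) for genes with a mean of at least 10. Tests were two-sided, and calls were made at a Benjamini-Hochberg adjusted p of at most 0.05 over all tested genes. An exact permutation test of 3 against 3 libraries cannot give p under 0.1. A genotype with at most 3 reads in each library was taken as being at the floor, and bounds were computed against 3 reads per library. Recovered reads were tested with edgeR 4.0.16 and DESeq2 1.42.0 among 16 alternatives, and 1 more was added after the data were seen. The genes and lists were chosen with earlier results of these data known. Named genes were the called genes, those at an unadjusted p under 0.05, the most abundant per length, and in related lists the called genes and up to 3 others. Not every gene that meets this rule is reported here. Ivl, S100a6, Tgm1, Tgm3 and further genes outside this rule were named for their role after their values were seen. Python 3.11.15, pandas 2.3.3 and matplotlib 3.10.9 were used.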

Additional observations from a re-analysis of the deposited data

How the results depend on the processing

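Over the named genes, 557 values under an alternative kept direction and side of the threshold, 79 no longer passed, 31 newly passed and 19 turned sign, all of the last in genes that were not called. Over all genes, 772 were called higher and 280 lower in DESeq2, in place of 479 and 98, and leaving out 1 library gave 222 to 559 and 32 to 98. Of the cornified envelope and S100 genes, the 5 called higher became 2 with a pseudocount of 0.1, 1 with the filter raised to 50 normalized counts, and 1 to 7 without 1 library, and the 4 called lower became 7 in DESeq2 and 1 to 5 without 1 library. Of the related genes, the 5 called higher became 8 in DESeq2, 3 in libraries 2 and 3 alone and 2 to 6 without 1 library, and the 4 called lower became 1 with a pseudocount of 0.1, with TMM scaling and in edgeR, 2 with FPKM, 7 in DESeq2 and 1 to 6 without 1 library. The causes were not tested.

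With the replicate number as a block, 848 genes were called higher and 269 lower, of the cornified envelope and S100 genes 8 and 7, and of the related genes 8 and 9. The block added Rptn (adjusted p = 0.0435), Sprr2a1 (6.35e-05) and Sprr2a2 (6.44e-05) to the higher and Crct1 (0.0128), S100a4 (0.000809) and Sbsn (0.0141) to the lower calls. A term that sets library 1 of each genotype apart from libraries 2 and 3, a reading of the headers' digits chosen after seeing the data, gave 846 and 286, 8 and 7, and 8 and 9. Same-numbered libraries deviated from their group means with correlations of 0.53, 0.02 and 0.31, and control library 3 was closest to ILK-K5 library 2 (0.50), so the numbers were not taken as pairs.

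Signs turned for S100a6 without control library 3 or ILK-K5 library 1 (log2 fold change -1.03 to 0.46 without 1 library), for S100a11 without control library 2 or ILK-K5 library 3 (-0.26 to 0.12), for S100a16 (-0.074 to 0.99) and Sprr4 (-0.31 to 2.42) without control library 1, and for S100a1 without control library 1, ILK-K5 library 2 or ILK-K5 library 3 (-0.55 to 1.76). Tgm1 turned in edgeR and DESeq2 (-0.19 in each), in libraries 2 and 3 alone (-0.13) and without control library 1 (-0.44 to 1.34), and Ivl in edgeR (-0.15), in DESeq2 (-0.16), in libraries 2 and 3 alone (-0.23) and without control library 1 or ILK-K5 libraries 2 or 3 (-0.57 to 0.49). Depth limits the 34 genes below the filter and the controls of S100a9, Sprr1b and Sprr2b, which rest on at most 3 reads per library. Intervals on fold changes cover the spread between libraries of amplified cDNA.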
